A study of Mus musculus with 23 samples.

Results

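The 37 genes described here encode lysosomal proteins and parts of the proton pump that acidifies lysosomes. They were chosen by name, were matched by Ensembl ID, and are 37 of the 55487 gene IDs counted in each library. By role they fall into 6 genes of membrane proteins, 11 of proteases, 7 of enzymes that cut glycans or sulfates, 5 of lipid handling proteins and cofactors, 7 of proton pump subunits, and Tfeb. Lysosomes are the acidic organelles in which cells break down proteins, lipids and sugars. The vacuolar proton pump (V-ATPase) carries protons into them, and most of their hydrolases work only at the low pH it maintains. TFEB is a transcription factor that raises the expression of many lysosomal genes by binding a short promoter element, called CLEAR, around the letters CACGTG. In neurons, mature degradative lysosomes are concentrated in the cell body, endosomes and autophagosomes from the axon are carried back to it, and inherited loss of several of these genes causes neuronal storage disease.

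RNA was measured by sequencing in cultures of hippocampal neurons from C57Bl/6 mice at postnatal day 1, grown in microfluidic chambers that separate axons from cell bodies. All cultures, controls included, received medium with magnetic nanoparticles (MNPs) at 5 µg/ml. Stretched cultures were exposed to a magnetic field gradient of 50 T/m between days 1 and 6 in vitro, and control cultures to a null gradient, which asks what pulling on the particles does to RNA levels. There were 5 libraries of control axons and 6 each of stretched axons, control somata and stretched somata, where stretched is named treated in the plots. The labels call the axonal samples a pure axonal preparation and the soma samples total cell culture, while the extraction protocol names a somatodendritic compartment. They do not say whether libraries of a group came from separate cultures or from pooled pups, so p-values measure the spread between these libraries, which may be technical.

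Libraries held 16369153 to 43048953 counts. At least 1 count was found for 4263 to 10242 genes in an axonal library and for 22452 to 24575 in a soma library. Levels are given as counts per 1000000 of the library's total (CPM). Markers of neurons summed to 6140 to 7754 CPM over the soma libraries and to 1655 to 4987 CPM over the axonal ones. All 11 neuronal markers were found in each soma library. Markers of astrocytes summed to 5304 to 14390 CPM in soma libraries and to 4841 to 25995 CPM in axonal libraries, so the ranges of the 2 compartments overlapped. Gfap was the largest part of these sums, at means of 6399 CPM in control somata and 12715 CPM in control axons. Aqp4 went the other way, at 311 and 31.2 CPM. Of the 10 markers, 7 had a negative fold change of axon over soma in control cultures and 8 in stretched ones. The 14 microglial markers summed to 62.1 to 159 CPM in soma libraries. In axonal libraries their sum ran from 0 to 959 CPM, with P2ry12 and Trem2 at 0 in all of them. The 6 nuclear RNAs summed to a median of 1642 CPM in control axons and 1626 CPM in control somata. In stretched cultures the medians were 858 CPM in axons and 1096 CPM in somata. Between axons and somata, 1 of the 6 was called lower in control cultures and 0 in stretched ones. How much RNA of glia or cell bodies the axonal values below include was not tested. Among the soma libraries, control soma replicate 4 stood apart. Its value lay within the range of the stretched libraries for 32 of the 37 genes, against 6 to 15 genes for each other control. This was not particular to the lysosome genes. Of all 15632 genes tested, 1.84% separated the soma groups upward and 2.27% downward, and 14% and 9.53% did so without that library. Soma libraries also fell into 6 with a higher level of the Y-linked gene Eif2s3y, 24.7 to 28.7 CPM, and 6 with a lower level, 5.39 to 13.2 CPM. Each set held 3 libraries of each group, and soma results are given within both sets.

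**Figure D1:**
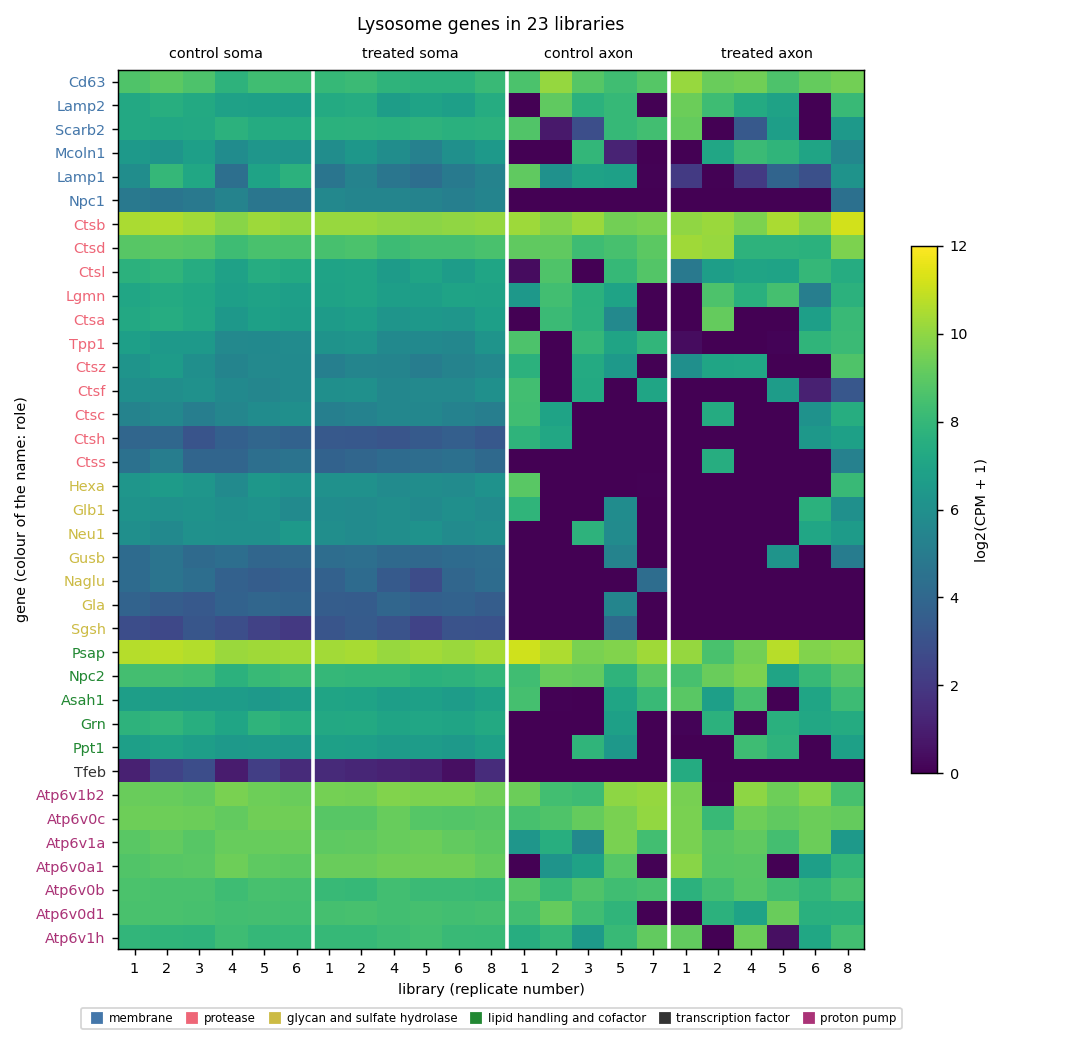
Level of each of the 37 lysosome genes (rows, grouped by role) in each of the 23 libraries (columns, by group and replicate number), as log2(CPM + 1). Soma columns are mostly even across replicates, apart from Lamp1 and Tfeb in controls, while axonal columns range from no counts to levels above those of somata, with no counts most often for the glycan and sulfate hydrolases and Tfeb.

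Letters from the CLEAR element were looked for first in the promoters, since TFEB is a member of the set. RefSeq promoters on GRCm38.p6, each 250 bases before to 50 bases after a start site, were at hand for 31 of the 37 genes. The other 6 had no entry here, namely Ctsb, Ctsh, Npc1, Asah1, Atp6v1b2 and Atp6v1h. The letters GTCACGTG, on either strand, were found in 11 of the 31 genes (35.5%), against 689 of 27025 genes in all (2.55%, or 2.25% of the 32851 promoters). The shorter CACGTG, which lies within it, was found in 14 of the 31 genes (45.2%), against 8.09% of all genes. The sites below are those of the 3 genes that were lower in stretched somata, Lamp1, Ctsa and Atp6v0b, followed by 3 genes that did not pass that test, Ctsd, Mcoln1 and Gla. Each is read 5′ to 3′ on the gene's own strand, with the GTCACGTG letters or their reverse complement in capitals.
Lamp1: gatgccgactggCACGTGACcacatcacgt
Ctsa, first site: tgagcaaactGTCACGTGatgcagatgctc
Ctsa, second site: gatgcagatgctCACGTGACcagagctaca
Atp6v0b: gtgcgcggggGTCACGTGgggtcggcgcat
Ctsd: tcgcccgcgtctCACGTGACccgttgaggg
Mcoln1: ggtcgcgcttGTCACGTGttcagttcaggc
Gla: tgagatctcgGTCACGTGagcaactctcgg
The Lamp1 site lies at chr8:13159121-13159150 on the plus strand, with the first base of CACGTG at position -28 from the start site. Those of Ctsa lie at chr2:164833749-164833778 and chr2:164833766-164833795 on the plus strand, at positions -12 and 6. The Atp6v0b site is at chr4:117887348-117887377 and the Ctsd site at chr7:142387908-142387937, both on the minus strand, at positions -36 and -98. The Mcoln1 site is at chr8:3500436-3500465 on the plus strand, at position -71, and a second one begins at position -45. The Gla site, at chrX:134601182-134601211 on the minus strand, lies farthest from its start, at position -194. The other 5 genes with the letters were Atp6v0d1, Glb1, Naglu, Sgsh and Lgmn. A longer form, in which the same letters are completed to a full palindrome, was found in 0 of the 31 genes. Over all genes it was found in 100 of 27025 (0.370%), so its absence from a set of this size decides little. The element is known from lysosomal genes and the set was chosen as lysosomal, so its higher share here is no independent result. A match describes the letters only, and binding of TFEB was not measured.

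Per kilobase of longest transcript, Psap led the set in control somata at 540 ± 86.0 CPM per kb (SD, n = 6), followed by the pump subunit Atp6v0b at 360.4 ± 28.6. Ctsb (261 ± 44.8), Atp6v0c (248 ± 17.6), Atp6v1b2 (222 ± 26.5), Atp6v0d1 (216 ± 15.2) and Ctsd (193 ± 33.0) came next, each differing from its neighbour in that order by no more than the larger SD. Pump subunits thus made up 4 of the 7 leading genes by level per kilobase. At the low end stood Gla at 3.89 ± 0.625, Tfeb at 1.28 ± 0.897 and Sgsh, a heparan sulfatase, at 1.26 ± 0.431 CPM per kb, with the last 2 within their spread of each other.

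In stretched somata, 10 of the 37 lysosome genes fell and 3 rose relative to control somata. Those that fell were the membrane proteins Lamp1 and Cd63, the proteases Ctsz, Ctsl, Ctsa and Ctsh, the lipid handling proteins and cofactors Grn and Npc2, and the membrane-domain pump subunits Atp6v0c and Atp6v0b. Npc1, Scarb2 and the pump subunit Atp6v0a1 rose. A gene was called where its adjusted p was under 0.05 (edgeR's quasi-likelihood test, Benjamini-Hochberg over all genes). By that rule 25.1% of all 15632 genes tested were called, 11.2% higher and 13.9% lower. The fold change was negative for 30 of the 37 genes, with a median of -0.25 on the log2 scale, while over all genes it was negative for 52.6% with a median of -0.03. Fewer cells of a type and less RNA per cell cannot be told apart in these bulk libraries.

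The membrane proteins moved in both directions. Lamp1 encodes a major glycoprotein of the lysosomal membrane and lies at chr8:13159161-13175338 (GRCm38, GENCODE M21). Its level was lowest at 20.1, median 133 and highest at 253 CPM in control somata, and 19.4, 27.5 and 40.6 CPM in stretched somata. All 6 stretched libraries were low, and of the controls only replicate 4 lay among them. The log2 fold change was -2.22 (SE 0.47, edgeR adjusted p = 0.0084), the largest of the set. Control somata also differed most among themselves for Lamp1 after Tfeb, with a coefficient of variation of 65.3% against a median of 18.3% over the genes. Without control soma replicate 4 the fold change was -2.46 (edgeR adjusted p = 2.3e-04). That library was singled out from these same values, so leaving it out was bound to enlarge the difference. Over all 12 fits that each left out 1 library, the fold change ran from -2.46 to -1.94 and the call was kept. The last exons of Lamp1 overlap Grtp1 on the opposite strand, and use of strand in the counting is not given in the sources used here.

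Cd63 encodes a tetraspanin of late endosomes and lysosomes (chr10:128900989-128912822). It ranged from 216 CPM through a median of 359 to 504 CPM in control somata, and from 206 through 243 to 292 CPM in stretched somata. The groups overlapped through control replicate 4 alone, the lowest of the controls. The log2 fold change was -0.61 (SE 0.17, edgeR adjusted p = 0.019). Npc1 encodes the transporter that hands cholesterol out of the lysosome. It ran from 24.5 through a median of 26.9 to 39.8 CPM in control somata and from 35.7 through 41.9 to 47.5 CPM in stretched somata. Again replicate 4, here the highest control, was the one inside the stretched range, and the log2 fold change was 0.51 (SE 0.12, edgeR adjusted p = 0.0099). Scarb2 encodes the receptor that carries glucocerebrosidase to lysosomes (chr5:92441314-92506833). Its values were 146, 158 and 209 CPM in control somata (lowest, median, highest) and 195, 206 and 216 CPM in stretched ones. On the log2 scale it rose by 0.28 (SE 0.09, edgeR adjusted p = 0.028), with stretched libraries close together. Lamp2, a second membrane glycoprotein, and Mcoln1, a calcium channel of the lysosomal membrane, did not pass, with log2 fold changes of -0.02 and -0.35.

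All 11 proteases had negative fold changes, from -0.69 to -0.06, and 4 of them passed. Ctsz, a carboxypeptidase cathepsin (chr2:174427493-174439039), was at 42.0, 57.4 and 96.1 CPM in control somata (lowest, median, highest) and at 33.5, 40.7 and 47.5 CPM in stretched somata. Ctsl, an endopeptidase cathepsin (chr13:64359337-64370890), was at 114, 171 and 229 CPM in controls and at 94.3, 125 and 131 CPM after stretch. For both genes the only control within the stretched range was replicate 4. Their log2 fold changes were -0.69 (SE 0.17, edgeR adjusted p = 0.013) and -0.62 (SE 0.15, edgeR adjusted p = 0.010). Ctsa, which protects beta-galactosidase and neuraminidase in a complex, fell by 0.51 and Ctsh, an aminopeptidase, fell by 0.48 on the log2 scale (edgeR adjusted p = 0.028 and 0.049). The most abundant proteases did not pass. Ctsb, the leading cysteine protease by level, was at 946, 1244 and 1521 CPM in control somata and at 957, 1071 and 1147 CPM in stretched somata. Ctsd, the main aspartic protease, was at 306, 416 and 486 CPM and at 299, 354 and 383 CPM. In both genes the stretched libraries lay within the control range or at its lower end, with log2 fold changes of -0.25 (SE 0.11, edgeR adjusted p = 0.087) and -0.27 (SE 0.11, edgeR adjusted p = 0.074).

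No gene of the glycan and sulfate hydrolases passed the test. Their log2 fold changes ran from -0.35 to 0.37, and 6 of the 7 were negative. Hexa, which trims gangliosides, came nearest, at -0.35 (edgeR adjusted p = 0.051). Among the lipid handling proteins and cofactors, Grn, the precursor of granulins, fell by 0.49 (SE 0.12, edgeR adjusted p = 0.013) and Npc2, the soluble cholesterol carrier that works with NPC1, fell by 0.38 (SE 0.11, edgeR adjusted p = 0.021) on the log2 scale. Npc1, its membrane partner, had risen, though that call was lost with offsets for transcript length and GC content (log2 fold change 0.27, edgeR adjusted p = 0.064). Psap, the precursor of the saposins that help enzymes reach sphingolipids, had the highest level per kilobase of transcript in control somata. It was at 1171, 1409 and 1722 CPM in control somata and 1149.5, 1274 and 1358 CPM in stretched somata, with 3 controls above every stretched library and 3 among them. Its log2 fold change was -0.23 (SE 0.10, edgeR adjusted p = 0.099). Ppt1, which removes fatty acids from proteins, and Asah1, the acid ceramidase, did not pass (log2 fold changes of -0.02 and 0.17).

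Tfeb itself was among the lowest genes of the set. It was at 0.886, 2.7 and 6.21 CPM in control somata (lowest, median, highest) and at 0.401, 1.33 and 1.85 CPM in stretched somata. Of the controls, 3 lay above every stretched library, and the other 3 lay among them. The log2 fold change was -1.29 (SE 0.46) and just missed the threshold (edgeR adjusted p = 0.051). DESeq2 called it (adjusted p = 0.020). Of the 9 genes that fell and had a promoter entry, 3 held GTCACGTG, against 8 of 20 genes that were not called and 0 of 2 that rose.

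Of the 7 pump subunits, 2 fell and 1 rose. Atp6v0c encodes the proteolipid ring of the membrane domain (chr17:24163866-24169702). It was at 550.3, 649.6 and 674 CPM in control somata and at 441, 468 and 597 CPM in stretched somata. The controls were close together apart from replicate 4, which together with stretched replicate 4 made the overlap, and the log2 fold change was -0.44 (SE 0.09, edgeR adjusted p = 0.0058). Atp6v0b, another proteolipid of the ring (chr4:117884326-117887333), fell by 0.38 (SE 0.08, edgeR adjusted p = 0.0080). Atp6v0a1 encodes the large membrane subunit that neurons use (chr11:101009452-101063719). It ran the other way, from 429 through 491 to 642 CPM in control somata and from 578 through 641 to 685 CPM in stretched somata. The log2 fold change was 0.29 (SE 0.09, edgeR adjusted p = 0.030), and control replicate 4 was again the value inside the stretched range. The catalytic and nucleotide-binding subunits Atp6v1a and Atp6v1b2, the regulatory subunit Atp6v1h and the stalk subunit Atp6v0d1 did not pass, with log2 fold changes from -0.07 to 0.23. Atp6v0c and Cd63 have annotated pseudogene copies, and reads that fit a copy equally well are not in these counts. In all, exons of 14 of the 37 genes overlap those of another gene, of 12 on the opposite strand, and those counts carry the same uncertainty.

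**Figure D2:**
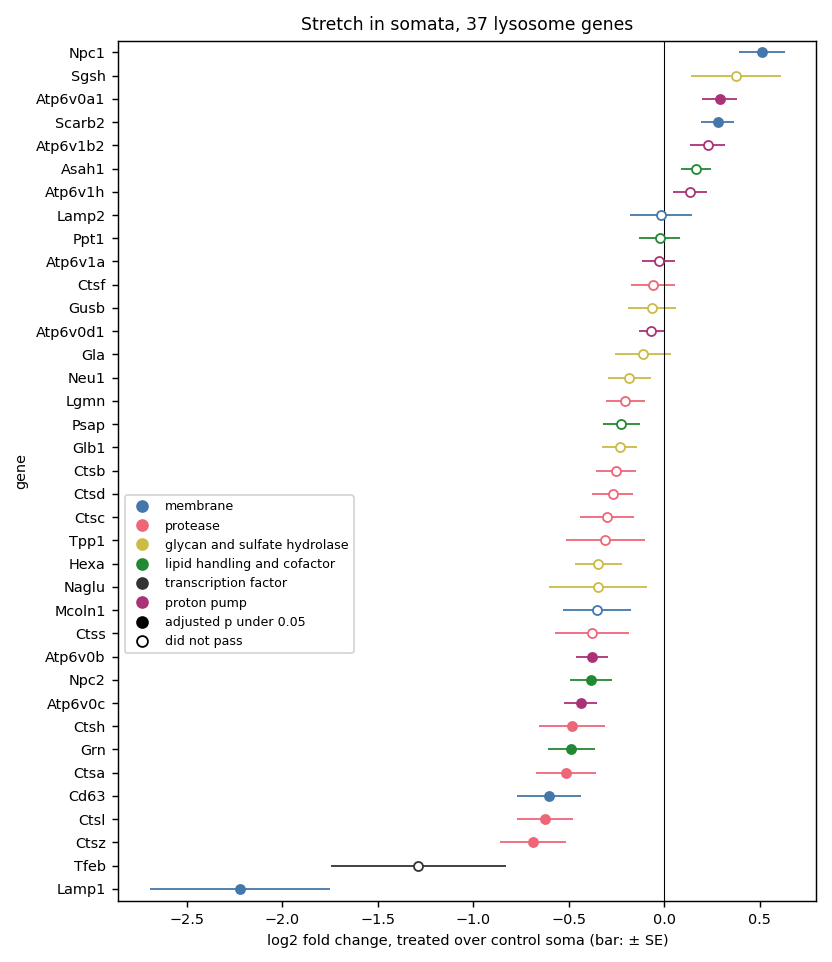
Log2 fold change of each of the 37 lysosome genes in stretched (treated) over control somata, with bars of 1 SE, coloured by role, filled where the adjusted p was under 0.05. Lamp1 stands alone at -2.22, all 11 proteases lie below 0, and Npc1, Atp6v0a1 and Scarb2 are the filled points above 0.

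**Figure D3:**
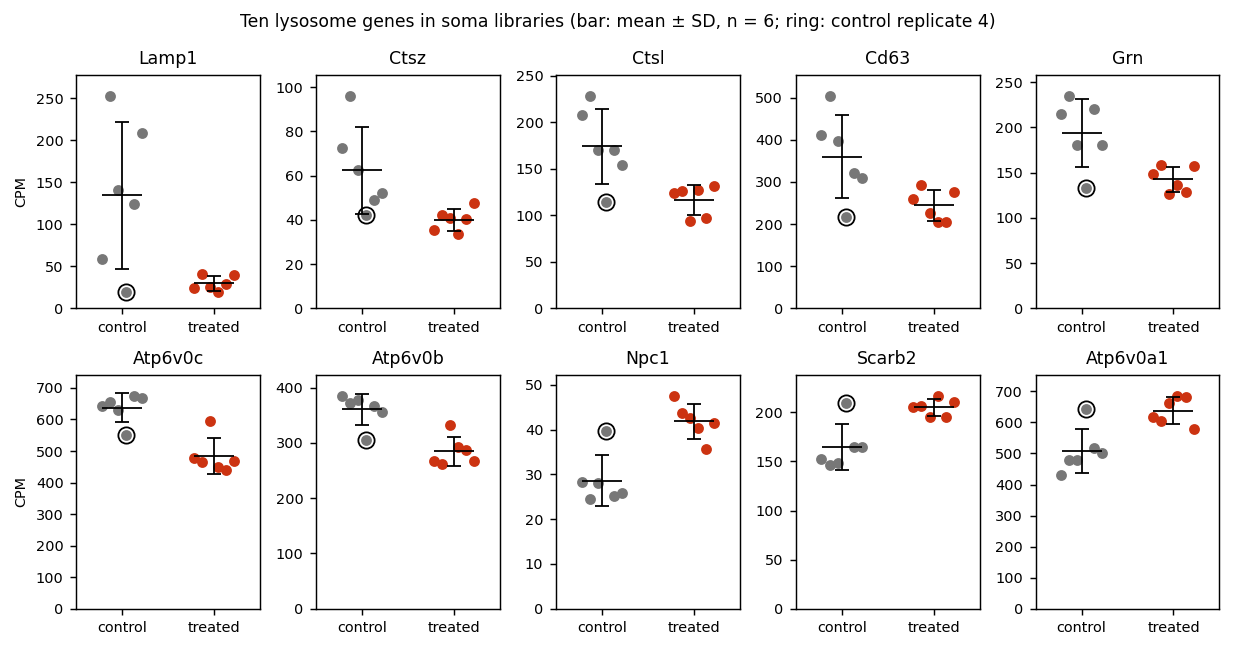
CPM of 10 of the 13 called genes in each soma library, with the mean and SD of 6 libraries per group and a ring around control replicate 4. In every panel the ringed control lies within the range of the stretched (treated) libraries.

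With all libraries, the soma values of 0 of the 37 genes separated the groups without overlap, where 1.84% of all genes did so upward and 2.27% downward. Without control soma replicate 4, 13 genes separated them, 4 higher (Npc1, Scarb2, Atp6v0a1 and Atp6v1b2) and 9 lower (Lamp1, Cd63, Ctsl, Ctsz, Hexa, Npc2, Grn, Atp6v0b and Atp6v0c). The background without that library was 14% higher and 9.53% lower. The library was picked because it lay among the stretched ones, so leaving it out could only widen the separation. Its removal raised the number called from 13 to 21, 4 higher and 17 lower, while the share of all genes called rose from 25.1% to 38.3%. Within the 6 libraries of higher Eif2s3y, 20 genes were called, 5 higher and 15 lower, against 29.2% of all genes. Within the 6 of lower Eif2s3y, 0 of the 37 and 0 of all genes were called by edgeR. There 9 of the 37 had an unadjusted p under 0.05, and each of the 13 called genes kept its sign. This lower set includes control soma replicate 4, and the difference between the sets was not tested. Longer genes had more positive fold changes in somata, with Spearman's rho of 0.46 over 15619 genes and 0.39 over the 37, which share all libraries. The 3 genes that rose have longest transcripts of at least 4162 bases. With offsets for length and GC content none of the 3 was called, 6 of the 10 that fell were, and the total was 9, against 15.8% of all genes. When any single library was left out in turn, the call on Ctsh was lost in 9 of 12 fits, those on Ctsa, Scarb2 and Atp6v0a1 in 6 each, and that on Npc2 in 2.

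Genes of the same organelle outside the set gave counts in both directions in stretched somata. Of 14 other pump genes tested, 1 rose and 5 fell, with a median log2 fold change of -0.21. Atp6v1f, a stalk subunit, fell by 0.48 (edgeR adjusted p = 0.0076), Atp6v0e fell by 0.39 (edgeR adjusted p = 0.028), and Atp6v0a2, a paralog of Atp6v0a1, rose by 0.29 (edgeR adjusted p = 0.041). Of 25 other lysosomal enzymes, 3 rose and 3 fell, with a median of -0.14. Arsb, a sulfatase, and Galc, which cleaves galactosylceramide, rose by 0.47 and 0.39 (edgeR adjusted p = 0.032 and 0.0499). Arsa, the sulfatase that acts on sulfatide, also rose by 0.39 (edgeR adjusted p = 0.024). Fuca1, a fucosidase, and Smpd1, the acid sphingomyelinase, fell by 0.50 and 0.28 (edgeR adjusted p = 0.017 and 0.016). Of 19 genes of lysosomal membrane and sorting proteins, 4 rose and 2 fell, with a median of 0.02. Igf2r, the large mannose 6-phosphate receptor that sorts enzymes to lysosomes, rose by 0.54 and Mfsd8, a membrane transporter, by 0.49, whereas Laptm4b fell by 0.59 and Gnptg, a subunit of the enzyme that makes the mannose 6-phosphate tag, by 0.39. Of 13 genes related to TFEB and nutrient sensing at the lysosome, 2 rose and 4 fell, with a median of -0.15. Mtor, the growth kinase recruited to lysosomes, rose by 0.56 and Fnip1 by 0.54, and the small GTPase Rragc fell by 0.88 and its scaffold Lamtor5 by 0.44.

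Markers of other cells were read beside these values. Of 13 microglial markers tested in somata, 3 fell and 0 rose, with a median log2 fold change of -0.54. The complement gene C1qa fell by 1.35 (edgeR adjusted p = 0.0031), and C1qb and Tyrobp fell by 0.80 each (edgeR adjusted p = 0.0062 and 0.015). Their summed level was 80.2 to 159 CPM in control and 62.1 to 86.3 CPM in stretched somata, with 0 of 14 markers absent from either group. Microglia are rich in lysosomal proteases, and Ctss, which in brain is largely microglial, was at 14.1 to 32.6 CPM in control and 12.8 to 20.4 CPM in stretched somata without passing (log2 fold change -0.38, edgeR adjusted p = 0.16). The part of microglial RNA in the lower protease values was not tested. Astrocyte markers had 0 of 10 called, and their sums overlapped, at 5304 to 14390 CPM in control and 5546 to 11733 CPM in stretched somata. Of 11 neuronal markers, 1 rose and 3 fell, and their sums were 6557 to 7754 CPM and 6140 to 6859 CPM. Of 6 markers of the oligodendrocyte lineage tested, Mog rose, and of 8 mesenchymal and vascular markers, Dcn fell, with the others not called. Of the 6 nuclear RNAs only Malat1 was called, lower by a log2 fold change of -0.96 (edgeR adjusted p = 0.019).

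In axonal libraries the first question was which lysosome genes were found at all. At least 1 count was present for 23.2 ± 4.15 of the 37 genes per control axon library (SD, n = 5) and for 23.8 ± 4.79 per stretched axon library (SD, n = 6), against all 37 in each soma library. The control libraries held 23, 21, 23, 30 and 19 of the genes, and the stretched ones 20, 22, 21, 22, 25 and 33. The groups overlapped throughout. Counts in all 11 axonal libraries were found for 10 genes, Lamp1, Cd63, Ctsb, Ctsd, Npc2, Psap, Atp6v0b, Atp6v0c, Atp6v1a and Atp6v1b2. At the other end, Gla, Naglu, Sgsh and Tfeb had counts in 1 axonal library each, and Ctss and Npc1 in 2.

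Detection in axons followed the level in somata, with Spearman's rho of 0.88 across the 37 genes, which share all libraries. Of the 20 genes with a soma mean of at least 100 CPM, a median of 85% was found per axonal library (range 70% to 100%). Over all 2367 genes of that level the median was 76.1% (range 55.3% to 97.4%). Of the 15 genes with a soma mean of 10 to 100 CPM the median was 33.3% (range 20% to 86.7%), and over all 7162 such genes it was 34.9% (range 21.5% to 71.2%). The pump was the most evenly found group, with 6.6 ± 0.55 of 7 subunits per control axon library (SD, n = 5) and 6.5 ± 0.55 per stretched one (SD, n = 6). The glycan and sulfate hydrolases were the least, with 2.0 ± 1.87 and 1.17 ± 1.60 of 7 (SD, n = 5 and 6). Of the 7 hydrolases only Hexa, Glb1 and Neu1 exceed a soma mean of 20 CPM, at 68.5, 60.8 and 62.4 CPM. They were found in 3, 4 and 4 of the 11 axonal libraries. Other members of similar soma level, Tpp1, Mcoln1, Ctsf and Ctsz (67.1, 72.0, 55.8 and 51.2 CPM), were found in 8, 7, 6 and 7. Whether detection differs by role at equal level was not tested.

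**Figure D4:**
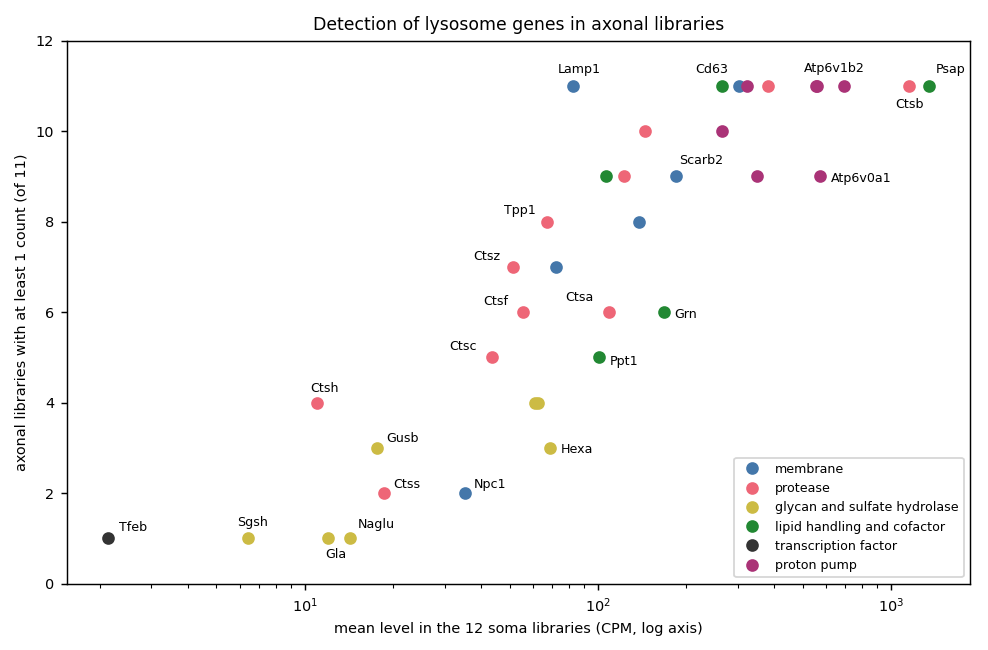
Number of the 11 axonal libraries in which each lysosome gene had at least 1 count, against its mean CPM over the 12 soma libraries on a log axis, coloured by role. Abundant pump, protease and cofactor genes lie at 11, and the rare hydrolases Sgsh, Gla and Naglu and the factor Tfeb lie at 1.

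The 37 genes together made up 0.849% ± 0.116 of counts in control axons (SD, n = 5), 0.882% ± 0.153 in stretched axons (SD, n = 6), 0.893% ± 0.080 in control somata and 0.812% ± 0.019 in stretched somata (SD, n = 6 each). Individual genes varied far more in axons, with a median coefficient of variation of 111% in control and 95.3% in stretched axons, against 18.3% and 10.2% in somata.

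Genes between these ends varied widely from library to library. Scarb2 was at 433, 0.749, 6.31, 262 and 326 CPM in control axon replicates 1, 2, 3, 5 and 7, and at 576, 0, 9.06, 105, 0 and 87.7 CPM in stretched axon replicates 1, 2, 4, 5, 6 and 8. Asah1 was at 348, 0.0499, 0, 131 and 275 CPM and at 489, 109, 363, 0, 134 and 296 CPM in the same order. High and low values of both genes occurred in each group, in part in different libraries. Atp6v1b2 stayed at 299.7 CPM or above in all control axons and at 364 CPM or above in all stretched axons but replicate 2, which held a single count. The evenest gene in axons was Atp6v0b, at 451, 267, 409, 319.5 and 362 CPM in control and at 209.7, 324, 458, 317, 245 and 362 CPM in stretched axons. Its coefficient of variation was 20.0% in control and 27.5% in stretched axons, the lowest of the set in both groups. Npc2 was also in every axonal library, at 225 to 583 CPM in control and 126 to 784 CPM in stretched axons.

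Compared with control somata, 4 of the 37 genes were lower in control axons and 0 were higher. Over all 14728 genes tested, 35.3% were called, 34.4% lower and 0.856% higher. The 4 were Ctss, Tfeb, Npc1 and Ctsb, and the median log2 fold change of the 37 was -0.25. That of all genes, a larger share of which is rare in somata, was -1.40. Of the 37 genes, 20 have a soma mean of at least 100 CPM. In axonal libraries of both conditions with at least 10 counts, their median ratio to somata was 1.04. Over all genes of that level it was 1.02. These ratios leave out libraries with fewer counts, and fold changes were not compared at matched soma level. Ctss and Tfeb had no count in any of the 5 control axon libraries, which holds for 27.1% of all genes tested. Against a floor of 3 counts in the axonal library where that is worth most, Ctss was at least 125-fold lower and Tfeb at least 18.0-fold lower (edgeR adjusted p = 4.6e-05 and 1.6e-04). Such floors reflect sampling of reads alone, and amplified reads do not each stand for a molecule. Npc1 had a single count in replicate 5 and none in the other 4, against a control soma mean of 28.6 ± 5.69 CPM (SD, n = 6). It was called lower (edgeR adjusted p = 2.3e-05). Ctss, Tfeb and Npc1 passed the filter on low counts through soma libraries alone, so the only call open to them was lower. Ctsb was present throughout, at 1220.1, 879.9, 1182, 697 and 763 CPM in control axon replicates 1, 2, 3, 5 and 7, against 946 to 1521 CPM in control somata. Below all somata lay 3 axonal libraries, and the log2 fold change was -0.65 (SE 0.19, edgeR adjusted p = 0.018). Without overlap between the groups, 4 of the 37 were lower in axons (Ctss, Npc1, Grn and Tfeb) and 0 higher, against 40.6% and 0.978% of all genes. The call on Ctsb was lost when libraries were scaled by total counts (log2 fold change -0.39, edgeR adjusted p = 0.19), which moved the median of the 37 to -0.01. It was also lost without the filter on low counts (edgeR adjusted p = 0.20). Without control axon replicate 5, which held 30 of the genes, 9 genes were called, against 53.6% of all genes.

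In stretched cultures 5 genes differed between axons and somata, 1 higher and 4 lower. Of all 14466 genes tested, 29.3% were called, 0.843% higher and 28.4% lower. Cd63 was higher in axons than in somata, with 1116, 604, 682, 402, 572 and 698 CPM in stretched axon replicates 1, 2, 4, 5, 6 and 8. Each of these lay above the highest stretched soma library at 292 CPM, and the log2 fold change was 0.96 (SE 0.24, edgeR adjusted p = 0.0074). In the control cultures its axonal values were 389.9, 1085, 459.8, 323 and 454 CPM, overlapping somata, and it did not pass (log2 fold change 0.29, SE 0.33, edgeR adjusted p = 0.71). With stretch, Cd63 fell in somata (log2 fold change -0.61) and was not called in axons (0.33, SE 0.47). The difference between the 2 conditions was not tested. Of the hydrolases, 3 had no count in any of the 6 stretched axon libraries, as had 21.9% of all genes tested. Naglu, which trims heparan sulfate, was at least 69.9-fold lower than in stretched somata (edgeR adjusted p = 2.4e-05). The bounds were at least 64.1-fold lower for Gla, which acts on globosides, and at least 40.1-fold lower for Sgsh (edgeR adjusted p = 1.2e-05 and 4.3e-06). Naglu, Gla and Sgsh passed the filter on low counts through soma libraries alone, so the only call open to them was lower. In control axons each of the 3 was found in 1 library of 5, Gla at 42.6 and Sgsh at 16.0 CPM in replicate 5 and Naglu at 18.3 CPM in replicate 7, and none was called there. Groups did not overlap for Cd63 upward, where 1.35% of all genes did so, and for Gla, Npc1, Naglu and Sgsh downward, where 34.6% did. Psap was at 1097, 374, 701, 1653, 835 and 968 CPM in stretched axons against 1149.5 to 1358 CPM in somata, below all somata in 5 of 6 libraries. Its log2 fold change was -0.90 (SE 0.31, edgeR adjusted p = 0.044), and the call was lost when scaled by total counts (-0.43, edgeR adjusted p = 0.40) and when any 1 of 9 of the 12 libraries was left out. Cd63 was no longer called without the filter (edgeR adjusted p = 0.14). Without stretched axon replicate 8, 10 genes were called, against 43.3% of all genes.

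**Figure D5:**
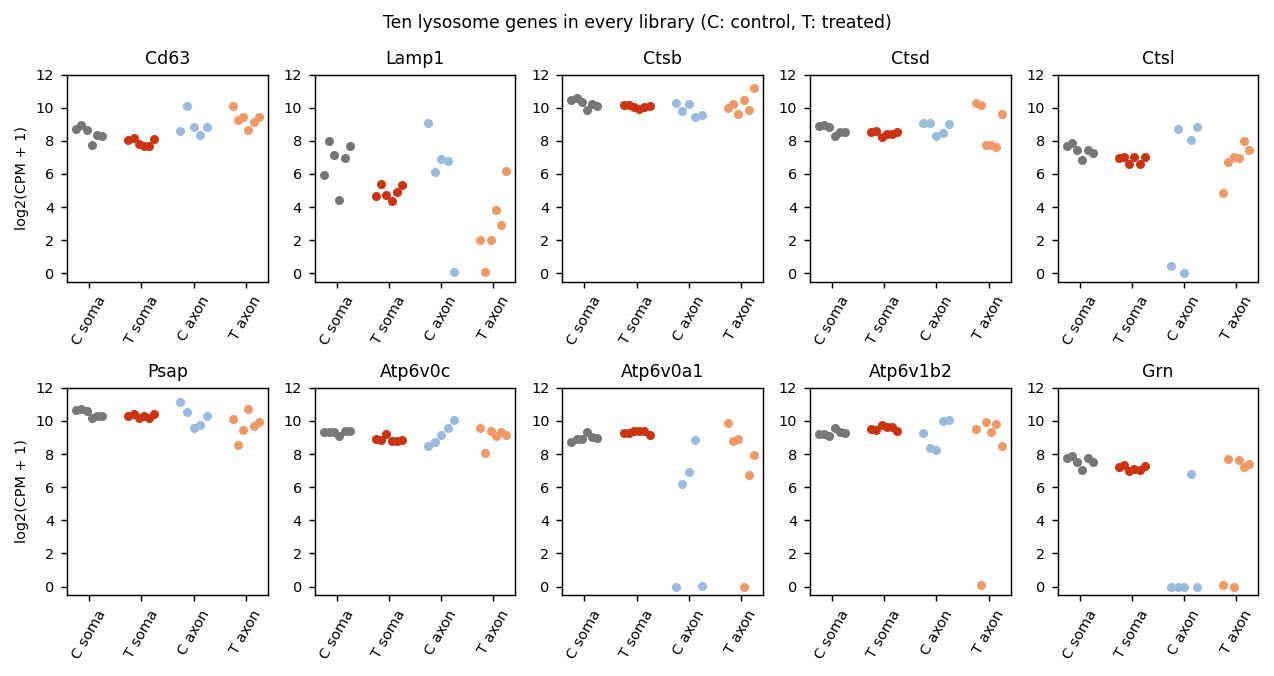
Log2(CPM + 1) of 10 lysosome genes in every library of control soma, treated (stretched) soma, control axon and treated axon. Cd63 lies higher in stretched axons than in stretched somata, Lamp1 falls in stretched somata and spreads widely in axons, and Atp6v0a1 and Grn range in axons from 0 to levels like those of somata or above.

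No pump subunit was called between axons and somata in either condition. On counts simulated with a spread shared between genes, not each gene's own, these 2 comparisons recovered 0% of 2-fold and 4-fold changes. Of 64-fold changes they recovered 19.7% and 24.2%, so such differences may be missed. Even so, Ctsb was called at a log2 fold change of -0.65 (SE 0.19) in control cultures. Cd63 was called at 0.96 (SE 0.24) in stretched ones. Atp6v0c was at 358, 415, 572, 764 and 1055 CPM in control axons and at 762, 267, 660.3, 544, 636 and 564 CPM in stretched axons, spanning the soma values. Its log2 fold change of axon over soma was -0.24 in both conditions (SE 0.31 and 0.25). Atp6v0a1 was uneven, at 0, 72.5, 118, 455 and 0.0389 CPM in control axons, the last being a single count, and at 948, 449, 478, 0, 107 and 249 CPM in stretched axons. All 7 subunits had negative fold changes in both conditions, from -2.08 to -0.13 in control and from -1.38 to -0.24 in stretched cultures. The median over all genes, which include genes rarer in somata, was lower, at -1.40 and -1.13. All 7 subunits have a soma mean of at least 100 CPM. In axonal libraries with at least 10 counts, their median level was 0.59 to 1.02 of the soma median. Over all 2366 genes of that soma level the median ratio was 1.02. Here too, libraries with fewer counts are left out, and fold changes were not compared at matched soma level. Of 13 other pump genes tested, 2 were lower and 0 higher in axons than in somata of each condition. Ctsd was at 535, 538, 311, 360.3 and 508 CPM in control axons and at 1238, 1135, 217, 215, 199 and 787 CPM in stretched axons. The stretched values fell into 3 above and 3 below all control somata, and neither comparison with somata was called (log2 fold changes of -0.15 and 0.30). Grn was seen in 1 of 5 control axon libraries, at 112 CPM in replicate 5, and in 5 of 6 stretched ones, 1 of them with 2 counts only.

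Stretch called no lysosome gene in axons. Of the 37, 26 passed the filter on low counts. None of the 7 glycan and sulfate hydrolases passed it, nor did Tfeb, Npc1, Ctss and Ctsh. By edgeR 0 of the 26 were called and 0 reached an unadjusted p of 0.05, and of all 4947 genes tested 0% were called. DESeq2 called 0 with 0 at an unadjusted p under 0.05, and limma voom called 0 with 2 at an unadjusted p under 0.05. The smallest p was that of Lamp1. It was at 539.8, 67.2, 118, 111 and 0.0389 CPM in control axon replicates 1, 2, 3, 5 and 7, and at 3.05, 0.0611, 3.09, 13.4, 6.51 and 70.0 CPM in stretched axon replicates 1, 2, 4, 5, 6 and 8. Of the controls, 4 were at 67.2 CPM or above, and 5 stretched libraries were at 13.4 CPM or below, while control replicate 7 and stretched replicate 2 each held a single count. The log2 fold change was -3.25 (SE 2.14), and it did not pass (edgeR unadjusted p = 0.15, adjusted p = 1.00).

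Next came Ctsb, at 1023, 1168, 785, 1418, 914 and 2315 CPM in stretched axons against 697 to 1220.1 CPM in control axons, a log2 fold change of 0.46 (SE 0.36, edgeR unadjusted p = 0.22). Psap followed, at 2257, 1464, 777, 852 and 1262 CPM in control axons against 374 to 1653 CPM in stretched axons, a log2 fold change of -0.46 (SE 0.40, edgeR unadjusted p = 0.27). For both genes the groups overlapped, as they did for all 26, where 0.101% of all genes separated upward and 0.222% downward. The spread between axonal replicates limits what could be seen. Counts were simulated with a spread that each fit shares between genes, not each gene's own. With it, 0% of genes changed 2-fold or 4-fold were recovered in axons and 7.58% of those changed 64-fold. In somata 100% of 2-fold changes were recovered. The simulation therefore does not bound genes that are even across axonal libraries. Whether the effect of stretch differed between axons and somata was not tested.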

How the data were processed

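RNA of the 23 libraries was made into amplified cDNA from poly(A) RNA with a low-input kit and sequenced as read pairs, per the labels' protocols. For each library the authors deposited raw counts of reads by Ensembl gene ID. The submitters' processing notes name FastQC 0.11.9, fastp 0.20.1, STAR 2.7.08a, HTSeq 0.13.5, MultiQC 1.12 and the mm10 build. Whether the counting used strand or the molecular identifiers is not given in the sources used here. Rows that name no gene (reads not unique, ambiguous, in no feature or of low quality) were left out of library totals. Of all reads in a file, 5.43% to 13.4% aligned to more than 1 place, 4.37% to 5.94% were ambiguous and 3.18% to 7.94% lay in no feature. Gene spans and lengths are from GENCODE M21 (GRCm38), where 55141 of 55487 IDs matched.

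Each comparison was fitted on its own libraries with edgeR 4.0.16 (filterByExpr, TMM, robust quasi-likelihood F test, Benjamini-Hochberg over all genes, threshold 0.05), in R 4.3.3. The SE is the size of the log2 fold change divided by the root of F. The script was tested on simulated counts. The 37 genes, the other lists and the groups of libraries by Eif2s3y (split at 20 CPM) were chosen with earlier results of these data known. Named with all values are Lamp1, Ctsb, Ctsd, Psap, Tfeb and Atp6v0c and, per comparison, up to 4 called genes at either end, or the 3 of smallest p where none was called. From each other list, up to 2 called genes at either end are named, and Arsa, C1qb, Ctss, Grn, Asah1, Npc2, Atp6v1b2, Mog, Dcn and Malat1 were added after their values were seen. Alternatives were total counts or DESeq2 1.42.0 size factors as scaling, no filter, DESeq2, limma 3.58.1 (voom with quality weights), the replicate number as a block, Eif2s3y as covariate or within each set, offsets for transcript length and GC content (mgcv 1.9.3), and leaving out libraries.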

Additional observations from a re-analysis of the deposited data

Results flagged for a closer look

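Each lysosome gene named with all its values was checked for a library far from the others of its group, in groups of 4 to 10 libraries. Of 65 such groups 17 held one. A chance rate of about 1 in 20 does not apply to groups with counts in only 1 library, which the rule always flags. Such were Gla, Sgsh, Naglu and Npc1 in control axons and Npc1 and Tfeb in stretched axons. In somata, control replicate 4 was the far library for Npc1, high at 39.8 CPM, for Scarb2, high at 209 CPM, and for Atp6v0c, low at 550.3 CPM. Among stretched somata, replicate 4 was high for Atp6v0c, at 597 CPM.

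In control axons, replicate 5 was far above the rest for Atp6v0a1 at 455 CPM, for Gla at 42.6 CPM and for Sgsh at 16.0 CPM, and held the only count of Npc1 (0.0232 CPM). That library had counts for 30 of the 37 genes, the most among control axons. Control axon replicate 1 was high for Lamp1 at 539.8 CPM, replicate 2 for Cd63 at 1085 CPM, and replicate 7 for Naglu at 18.3 CPM.

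In stretched axons, replicate 8, with counts for 33 of the 37 genes, was high for Lamp1 at 70.0 CPM, for Ctsz at 412 CPM and for Npc1 at 20.9 CPM. Replicate 1 was high for Scarb2 at 576 CPM and held all the counts of Tfeb, at 164 CPM against a soma maximum of 6.21 CPM. Replicate 2 was high for Ctss, at 179 CPM.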

How the results depend on the processing

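For stretch in somata, 13 genes were called. The number was 21 with Eif2s3y as a covariate (33.9% of all genes). It was 20 within the 6 libraries of higher Eif2s3y and 0 within the 6 of lower Eif2s3y, which include control soma replicate 4. It ran from 8 to 21 when 1 library was left out, with 8 without control soma replicate 2 (17.5% of all genes) and 21 without control soma replicate 4. Length and GC offsets gave 9 calls, 6 of them shared with the 13, and left out Atp6v0a1, Atp6v0b, Ctsh, Ctsz, Grn, Npc1 and Scarb2. For axons against somata in control cultures, limma voom gave 18 calls in place of 4, with 66.5% of all genes called in place of 35.3%, and leaving out 1 library gave 4 to 9, with 9 without control axon replicate 5. In stretched cultures limma voom gave 19 calls in place of 5, with 69.7% of all genes in place of 29.3%, no filter gave 3 (35.1% of all genes), and leaving out 1 library gave 4 to 10, with 10 without stretched axon replicate 8. The cause was not tested. Stretch in axons gave 0 calls under every alternative run, where 0 to 5 of the 37 had an unadjusted p under 0.05. No direction of a named gene reversed under the alternatives run, and outside the fits that left out 1 library, 238 values of named genes kept their call, 50 lost it and 17 gained it.

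Replicate numbers are shared between groups. The deviations of same-numbered libraries correlated at 0.0906 to 0.233 in somata, all positive, and at -0.019 to 0.067 in the other comparisons. Each number shared by control and stretched somata fell in the same Eif2s3y set. Differently numbered libraries were not compared, so whether the numbers mark pairs was not settled. The main fits did not take them as pairs. With the replicate number as a block, 12 genes were called in somata (10 in the same libraries without it). Over all genes the block gave 20.7% in somata, against 17.3% in the same libraries without it. It gave 0 for stretch in axons, 4 for control axons against somata and 6 for stretched axons against somata. Together with the length and GC offsets, the block gave 10 in somata. Genes found per axonal library changed little with a minimum of 10 counts (22 ± 4.74 and 23 ± 5.40, SD, n = 5 and 6) or at equal depth (23 and 23.7), and were 21.5 to 24.2 and 22.0 to 24.6 on average with 1 library left out.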
